A study of Mus musculus with 4 samples.

Results

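The genes described here carry calcium signals from the plasma membrane to the nucleus of T cells: the calcium sensors Stim1 and Stim2, the channel subunits Orai1 and Orai2, the calcineurin catalytic subunits Ppp3ca and Ppp3cc, the calcineurin regulator Rcan1, and the transcription factors Nfatc1, Nfatc2 and Nfatc3. They were chosen by name, as the probe sets with 1 of these 10 symbols and no other in the platform annotation, and all 10 were found among 22180 named genes with 1 probe set each. The measurements are those of 4 Affymetrix whole-transcript arrays, for which invariant natural killer T (iNKT) cells of mice gave the total RNA. Of these, 2 arrays came from CD4-Vα14Tg mice, in which the CD4 promoter drives a transgene for the Vα14 chain of the T cell receptor (TCR), and 2 from wild-type (WT) controls. The CD4 promoter is active in thymocytes and in conventional CD4 T cells as well, so the transgene is not limited to iNKT cells. The labels state neither the organ, the age, the sort, the number of mice nor any treatment, and the extraction text speaks of frozen tissue. Nothing states that the replicates came from separate animals, so p-values here measure only the spread between arrays, which may be technical.

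In T cells, TCR engagement activates phospholipase C-γ1, and the inositol trisphosphate it makes empties the calcium store of the endoplasmic reticulum. STIM proteins sense the emptied store and open ORAI channels in the plasma membrane. The calcium that enters binds calmodulin, which activates the phosphatase calcineurin, and calcineurin strips phosphates from NFAT proteins so that they move into the nucleus and switch on cytokine and receptor genes. iNKT cells respond to lipids presented by CD1d, and this pathway is used both during their selection in the thymus and when they release cytokines.

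The pathway also feeds back on itself through Rcan1, whose internal promoter is a well-known NFAT target. For this reason the RefSeq sequences before both starts are shown, 250 bases each on the minus strand of GRCm38.p6, with the NFAT core GGAAA, or TTTCC where it lies on the other strand, in capitals. The internal start has its window at chr16:92400079-92400328 and the upstream start at chr16:92466170-92466419.
Rcan1 internal start: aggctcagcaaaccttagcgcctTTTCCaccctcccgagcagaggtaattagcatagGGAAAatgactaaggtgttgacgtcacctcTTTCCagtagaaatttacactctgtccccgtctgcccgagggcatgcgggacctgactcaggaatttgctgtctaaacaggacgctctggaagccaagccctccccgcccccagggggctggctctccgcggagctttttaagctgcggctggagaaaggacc
Rcan1 upstream start: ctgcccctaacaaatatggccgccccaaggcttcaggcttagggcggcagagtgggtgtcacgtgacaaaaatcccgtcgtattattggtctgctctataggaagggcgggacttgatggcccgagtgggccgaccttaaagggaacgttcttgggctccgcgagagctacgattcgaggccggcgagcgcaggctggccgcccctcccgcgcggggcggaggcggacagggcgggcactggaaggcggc
The internal window held 3 matches, 1 as GGAAA and 2 as TTTCC, and the upstream window held 0. Of 32817 windows of this length in the RefSeq table, 55.6% held at least 1 match on either strand and 6.38% held at least 3. Among the 10 windows searched for 7 of the genes, Nfatc2 had 3 and 1 matches at its starts, Nfatc3 had 1 and 0, Orai2 had 1, and Orai1, Stim1 and Stim2 had 0 each. No window of Nfatc1, Ppp3ca or Ppp3cc was searched. A match describes letters only, and the array gives Rcan1 a single value, in which the 2 starts cannot be told apart.

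Ppp3cc, the γ isoform of the calcineurin catalytic subunit, was 1.59-fold lower in CD4-Vα14Tg cells and was the 1 gene of the 10 that passed the test. No other gene of the 10 passed, in either direction. Nfatc1, the inducible member of the NFAT family, was 1.42-fold lower without passing, and the other 8 genes differed by at most 1.18-fold. The test was limma's moderated test over 13602 genes, with Benjamini-Hochberg adjustment over all of them and 0.05 as the threshold. By that rule 1.95% of all genes tested were called: 1.34% of all were lower and 0.610% higher in CD4-Vα14Tg cells.

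**Figure D1:**
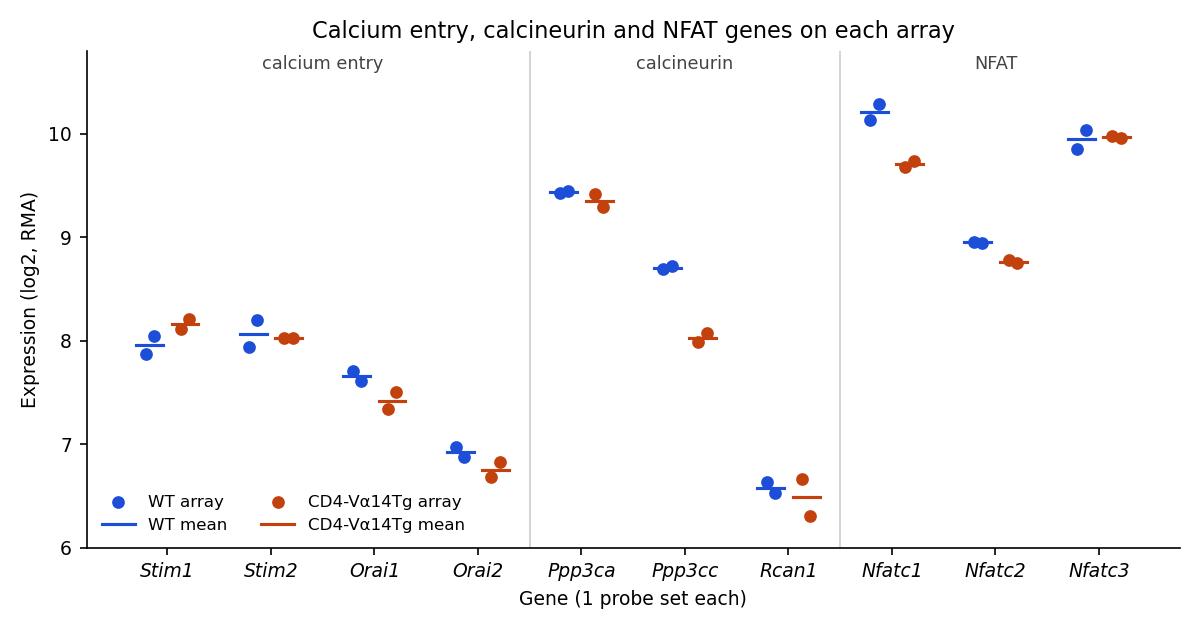
Expression of the 10 genes on the log2 scale of the deposited values, with 1 point per array and a bar at the mean of 2 arrays, for WT and CD4-Vα14Tg. The groups of Ppp3cc and Nfatc1 stand clearly apart, those of Rcan1, Stim2 and Nfatc3 overlap, and heights are not comparable between genes.

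All 10 genes lay above the filter for dim probe sets on every array, by at least 1.63 on the log2 scale (Rcan1, the nearest to it). Their differences, always CD4-Vα14Tg minus WT on the log2 scale, had a median of -0.13, against -0.02 for all genes tested, and 8 of the 10 were below 0, against 56.0% of all genes. Arrays of both genotypes were fully separated, with CD4-Vα14Tg lower, for 6 of the 10, against 23.4% of all genes, and with CD4-Vα14Tg higher for 1 of the 10, against 15.7%. At an unadjusted p under 0.05 stood 2 of the 10, against 11.7% of all genes. The 10 genes were chosen with earlier results of these data known, so these shares and their direction are no independent evidence.

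**Figure D2:**
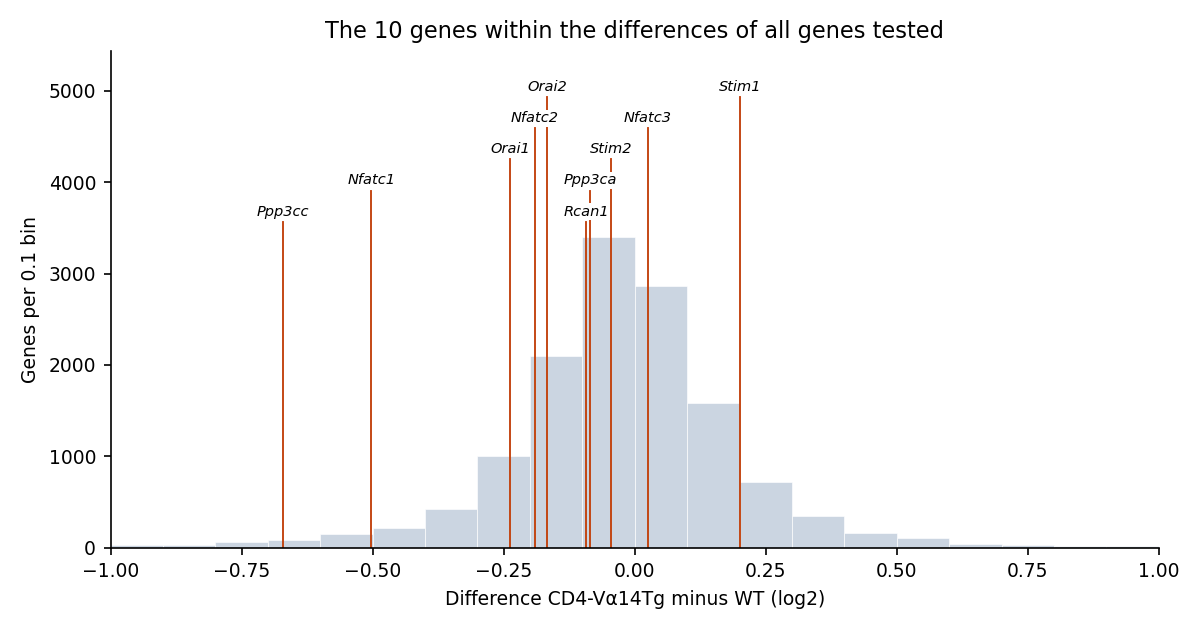
Number of genes tested in bins of 0.1 of the log2 difference CD4-Vα14Tg minus WT, with a labelled line at each of the 10 genes; the horizontal axis stops at 1 either way, so genes with larger differences are not drawn. Ppp3cc at -0.67 and Nfatc1 at -0.50 lie in the lower tail, and the other 8 lie in the bulk of the distribution.

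Calcineurin is a dimer of a catalytic A subunit, which has α, β and γ isoforms, and a calcium-binding B subunit. Ppp3cc read 7.99 and 8.07 on the CD4-Vα14Tg arrays and 8.69 and 8.72 on the WT arrays. Both CD4-Vα14Tg arrays were below both WT arrays, and the gap between the groups was several times the spread within either. The means were 8.03 ± 0.06 against 8.70 ± 0.02 (SD, n = 2 arrays each), a difference of -0.67 with a standard error of 0.12, a 95% interval from -0.95 to -0.40 and a limma adjusted p of 0.0379. Of all genes tested, 1.92% had a lower difference. Among the 182 genes called lower its size ranked 173rd, so it stood among the smallest falls that passed. The fall kept its sign and a similar size when any 1 array was left out, from -0.71 to -0.63, but the call was lost each time: the limma adjusted p was 0.150 and 0.104 without CD4-Vα14Tg replicates 1 and 2, and 0.119 and 0.159 without WT replicates 1 and 2.

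Ppp3ca, the α isoform of the same subunit, read 9.42 and 9.29 in CD4-Vα14Tg and 9.43 and 9.45 in WT cells. Its groups did not overlap, but the higher CD4-Vα14Tg array lay almost level with WT, and the difference was -0.08, with 95% limits of -0.36 and 0.19 (limma adjusted p = 0.910). The β isoform gene Ppp3cb, which is not among the 10, showed -0.09, with limits of -0.37 and 0.20, again without passing (limma adjusted p = 0.911). Whether the difference of Ppp3cc departs from those of the other isoforms was not tested.

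Rcan1, which binds and restrains calcineurin and is itself induced by NFAT, read 6.67 and 6.31 in CD4-Vα14Tg and 6.64 and 6.53 in WT cells. The CD4-Vα14Tg arrays lay on either side of the WT arrays. The difference was -0.09, with 95% limits of -0.45 and 0.26 (limma adjusted p = 0.928), so that levels from 0.73 to 1.20 times that of WT are covered. It was -0.27 without CD4-Vα14Tg replicate 1 and 0.09 without CD4-Vα14Tg replicate 2, so its sign rests on 1 array.

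None of the 3 NFAT genes among the 10 passed the test. Nfatc1 is the member that T cells raise on activation through its own NFAT-responsive promoter. It read 9.67 and 9.73 in CD4-Vα14Tg and 10.13 and 10.28 in WT cells, with both CD4-Vα14Tg arrays below both WT arrays. The means were 9.70 ± 0.04 against 10.21 ± 0.11 (SD, n = 2 arrays each), a difference of -0.50 with a standard error of 0.12 and a 95% interval from -0.79 to -0.22. The unadjusted p in limma was 0.00417, and the limma adjusted p of 0.115 missed the threshold. Of all genes tested, 3.37% had a lower difference. When 1 array was left out, the difference ran from -0.58 to -0.43 and the limma adjusted p from 0.189 to 0.426.

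Nfatc2 encodes NFAT1, the form abundant in resting T cells. It read 8.78 and 8.75 in CD4-Vα14Tg and 8.96 and 8.95 in WT cells. Both groups were tight and did not overlap, but the difference was small, at -0.19 with 95% limits of -0.46 and 0.08 (limma adjusted p = 0.634). Nfatc3, which encodes NFAT4 and is prominent in thymocytes, read 9.98 and 9.96 in CD4-Vα14Tg and 9.85 and 10.04 in WT cells. Both CD4-Vα14Tg arrays lay between the WT arrays, and the difference of 0.03 had limits of -0.27 and 0.32 (limma adjusted p = 0.983), with -0.07 without WT replicate 1.

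**Figure D3:**
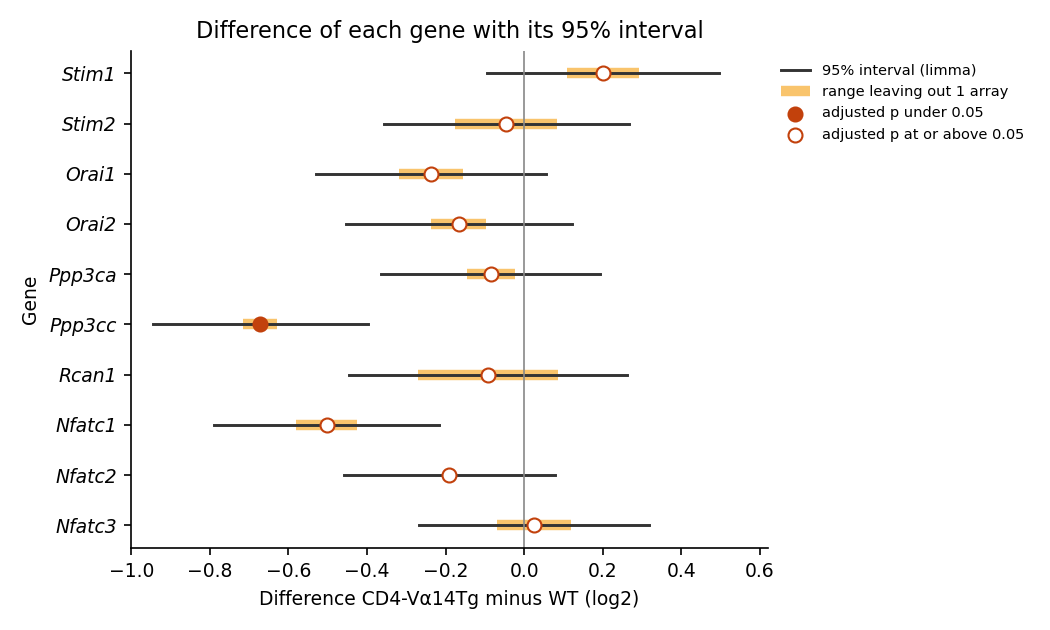
Difference CD4-Vα14Tg minus WT on the log2 scale for the 10 genes, with the 95% interval of limma's fit as a line, the range over fits that leave out 1 array as a shaded band, and a filled point where the adjusted p is under 0.05. The intervals of Ppp3cc and Nfatc1 lie below 0, and the other 8 intervals include 0.

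None of the 4 calcium entry genes passed limma's test, and 0 lay at an unadjusted p under 0.05, against 11.7% of all genes tested. Orai1, the pore subunit of the calcium release-activated channel, read 7.34 and 7.50 in CD4-Vα14Tg and 7.71 and 7.61 in WT cells. Orai2, a paralogue that can join the same channel, read 6.69 and 6.83 against 6.97 and 6.88. Both genes had their CD4-Vα14Tg arrays below their WT arrays, by gaps about as wide as the spread within groups or narrower. The difference was -0.24 for Orai1 with 95% limits of -0.53 and 0.06 (limma adjusted p = 0.563). It was -0.17 for Orai2 with limits of -0.45 and 0.12 (limma adjusted p = 0.727).

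Stim1, the main sensor of store depletion in T cells, was the 1 gene of the 10 with both CD4-Vα14Tg arrays above both WT arrays. It read 8.11 and 8.21 in CD4-Vα14Tg and 7.87 and 8.05 in WT cells, a difference of 0.20 with 95% limits of -0.10 and 0.50 (limma adjusted p = 0.654). Stim2, a sensor that responds to smaller losses of stored calcium, read 8.03 and 8.02 against 7.94 and 8.20. Its CD4-Vα14Tg arrays were nearly equal and lay between the WT arrays, with a difference of -0.04 (interval -0.36 to 0.27, limma adjusted p = 0.969) that became 0.09 without WT replicate 2. For these 4 genes, the intervals reach from 0.69 times to 1.41 times the WT level, and differences within them remain possible. With 2 arrays a group, the smallest difference called among all genes tested was 0.64 in size on the log2 scale.

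The other genes of the pathway were followed in 7 lists, of which 78 entries were tested, 5 fell, 2 rose and 71 did not pass, against 1.95% of all genes called. Their median difference was -0.05. Among the other subunits and paralogues 0 of 4 tested were called by limma. Before adjustment, 1 of them had a limma p under 0.05, against 11.7% of all genes tested. Orai3, the third ORAI channel gene, had -0.33 with CD4-Vα14Tg arrays at 6.87 and 7.39 and WT arrays at 7.37 and 7.55 (limma adjusted p = 0.605), and the value was -0.07 without CD4-Vα14Tg replicate 1 and -0.59 without the other. Nfatc4, an NFAT gene expressed mainly outside lymphocytes, had 0.52 with a limma adjusted p of 0.176, and its readings from 4.36 to 5.05 were close to the filter for dim probe sets. The calmodulin genes, Ppp3r1 and Rcan3 had no probe set named with them alone and were not analysed here.

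Upstream of the store, 1 of 9 genes tested rose and 0 fell, against 0.610% of all genes called higher and 1.34% called lower. Their median was 0.01, and 3 of the 9 had an unadjusted p under 0.05 in limma, against 11.7% of all genes tested. The gene that rose was Themis, a regulator of TCR signalling in thymocyte selection. Its means were 8.39 ± 0.07 against 6.72 ± 0.30 (SD, n = 2 arrays each), 3.18-fold higher in CD4-Vα14Tg cells (limma adjusted p = 0.00408). Plcg1, the phospholipase that starts store release, differed by 0.06 (limma adjusted p = 0.941). The inositol trisphosphate receptor genes Itpr2 and Itpr3, which form the release channel, had -0.32 and -0.30 (limma adjusted p = 0.351 and 0.393), and the TCR kinase gene Zap70 had -0.26 (limma adjusted p = 0.504). The value of Itpr3 became -0.14 when the mean of its probe sets stood for the gene (limma adjusted p = 0.793).

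Among 17 channels, pumps and regulators of calcium entry, 1 fell and 1 rose, against 1.34% of all genes called lower and 0.610% called higher. The median was -0.0045, and 5 of the 17 had an unadjusted p under 0.05 in limma, against 11.7% of all genes tested. Atp2b4, the plasma membrane pump PMCA4 that removes calcium from the cell, read 7.04 and 7.30 in CD4-Vα14Tg and 8.44 and 8.96 in WT cells. It was 2.87-fold lower (limma adjusted p = 0.0110), the largest fall in this list, and passed without any 1 array (adjusted p from 0.00430 to 0.0424). P2rx7, a calcium-permeable channel gated by extracellular ATP, read 8.39 and 8.26 against 7.52 and 7.72 and was 1.63-fold higher. Its limma adjusted p of 0.0497 lay just under the threshold, and the call was lost without any 1 array (0.0870 to 0.185) and with no filter on dim probe sets (0.0661). The 2 potassium channels that sustain the driving force for calcium entry had differences of opposite sign: Kcnn4 had 0.70 and Kcna3 had -0.48 (limma adjusted p = 0.0645 and 0.250). Cracr2a, which helps STIM1 and ORAI1 meet, had -0.39 (limma adjusted p = 0.308).

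Regulators of calcineurin and factors that act beside NFAT showed 0 calls in 11 genes, and NFAT kinases and transport factors 0 in 8. At an unadjusted p under 0.05 in limma stood 4 and 0 of them, against 11.7% of all genes tested. In the first list the largest moderated t values were those of Mef2a, a calcium-responsive transcription factor, at -0.49, Homer2, which can bind NFAT, at 0.57, and Hdac7, a class II deacetylase, at -0.34 (limma adjusted p = 0.142, 0.150 and 0.372). In the second list every tested gene lay between -0.08 and 0.06, and the largest moderated t values were those of the casein kinase gene Csnk1e at -0.08, the importin gene Kpnb1 at -0.06 and the nuclear exporter gene Xpo1 at 0.06 (limma adjusted p = 0.931, 0.937 and 0.943). The export kinase genes Gsk3b and Dyrk1a had 0.04 and 0.05.

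**Figure D4:**
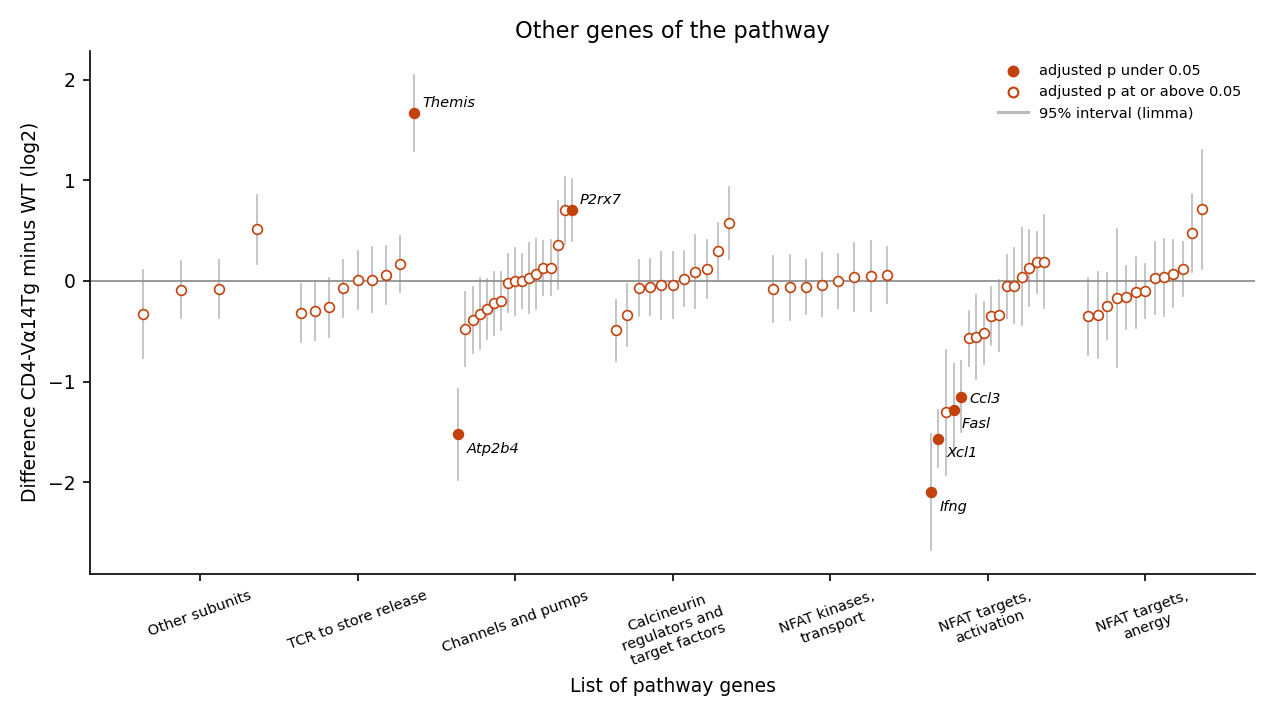
Difference CD4-Vα14Tg minus WT on the log2 scale for the tested genes of 7 pathway lists, with 95% intervals of limma's fit and filled points where the adjusted p is under 0.05. The 7 called genes are labelled: Themis and P2rx7 above 0, and Atp2b4, Ifng, Xcl1, Fasl and Ccl3 below 0.

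Of 16 genes that NFAT helps to switch on during activation, 4 fell and 0 rose, with a median of -0.43, against 1.34% of all genes called lower. Like the other lists it was chosen with earlier results of these data known, so its direction is no independent evidence. Ifng, the gene of interferon-γ, read 7.79 and 7.05 in CD4-Vα14Tg and 9.70 and 9.32 in WT cells and was 4.27-fold lower (limma adjusted p = 0.00889). Xcl1, the chemokine lymphotactin, read 9.81 and 9.69 against 11.35 and 11.28 and was 2.96-fold lower (limma adjusted p = 0.00166). Also lower were Fasl, the death ligand, by 2.43-fold (limma adjusted p = 0.0215) and Ccl3, an inflammatory chemokine, by 2.22-fold (limma adjusted p = 0.0122). Ccl3 read 5.02 and 4.66 in CD4-Vα14Tg cells, close to the filter for dim probe sets, so its fold is set against background. The call of Fasl was lost when either CD4-Vα14Tg array was left out (limma adjusted p = 0.0769 without replicate 1 and 0.0610 without replicate 2). Tnf, Il13 and Tnfsf11, which encode TNF, interleukin-13 and RANKL, had -1.30, -0.57 and -0.52 without passing (limma adjusted p = 0.0636, 0.0624 and 0.126), and leaving out CD4-Vα14Tg replicate 1 brought Tnf past the threshold (limma adjusted p = 0.0115). Il4, the gene of interleukin-4, had -0.56, with 8.10 and 8.17 in CD4-Vα14Tg below 8.44 and 8.95 in WT cells, the chemokine gene Ccl4 had -0.35 and the early response gene Egr3 had -0.34, again without passing (limma adjusted p = 0.234, 0.289 and 0.451). The other 6 tested genes lay between -0.05 and 0.19, namely Il5, Cd40lg, Il21, Irf4, Egr2 and Il2ra. Il2, Il3 and Csf2 lay below the filter.

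NFAT targets tied to anergy and exhaustion showed 0 calls in 13 genes and a median of -0.10. At an unadjusted p under 0.05 in limma stood 2 of them, against 11.7% of all genes tested. Dgka, a lipid kinase that dampens TCR signals, had 0.48, the orphan receptor gene Nr4a2 had 0.71 and the inhibitory receptor gene Lag3 had -0.35 (limma adjusted p = 0.289, 0.298 and 0.489). Leaving out 1 array moved Dgka to between 0.26 and 0.69, Nr4a2 to between 0.33 and 1.09 and Lag3 to between -0.52 and -0.18.

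Of 12 iNKT and T cell markers, 3 fell, 0 rose and 9 did not pass, against 1.34% of all genes called lower and 0.610% called higher. Tbx21, which encodes T-bet, the regulator of the interferon-γ-producing NKT1 subset, read 7.41 and 7.79 against 9.07 and 8.91 and was 2.62-fold lower (limma adjusted p = 0.00819), and Klrb1c, the NK1.1 antigen gene, was 2.72-fold lower (limma adjusted p = 0.00326). Il2rb, a receptor subunit for interleukin-15, also fell, by 0.80 on the log2 scale (limma adjusted p = 0.0427). Slamf6, a receptor used in iNKT selection, had 0.73 and Zbtb16 had 0.23, both without passing (limma adjusted p = 0.0603 and 0.567). None of the 12 lay below the filter on all arrays, and their summed level on the linear scale was 17997 to 19029 in CD4-Vα14Tg and 19671 to 22060 in WT cells. In bulk RNA, fewer cells of a subset and less RNA per cell cannot be told apart, and the part of subset composition in the fall of Ppp3cc or of the NFAT targets was not tested. The 5 naive and CD8 T cell markers with a name had a summed level of 3456 to 3544 on the linear scale in CD4-Vα14Tg and 1457 to 1573 in WT cells, with Ccr7, Lef1 and Igfbp4, 3 of the 4 tested, higher, while Cd8a lay below the filter on all arrays; their part in the results was not tested either.

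Across the series, 182 genes were called lower and 83 higher. Of the iNKT and T cell markers, Zbtb16, the gene of PLZF, read 11.08 to 11.39 over the 4 arrays. Cd3e, which T cells in general express, read 11.95 to 12.45, and both lay far above the filter. Markers of other cells were mostly dim: 4 of 6 B and plasma cell, 5 of 8 macrophage, monocyte and dendritic cell, 5 of 6 neutrophil and 4 of 5 double-positive thymocyte markers lay below the filter on all 4 arrays, as did both platelet markers, Pf4 and Ppbp, while 2 of 7 epithelial and stromal markers did. Summed on the linear scale, the epithelial and stromal list ran from 761 to 782 in CD4-Vα14Tg and from 593 to 630 in WT cells, but without Pecam1, a gene that leukocytes also express, from 202 to 221 and from 201 to 216. The macrophage, monocyte and dendritic cell list ran from 249 to 252 and from 285 to 286, and without Cd68, its brightest gene, from 134 to 145 and from 140 to 154. Without these single genes the sums of both genotypes overlapped. Arrays of the same genotype correlated across genes at 0.993 and 0.994, and arrays of different genotype at 0.989 to 0.991, which describes genes that are not independent replicates.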

How the data were processed

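Total RNA of iNKT cells, 2 arrays for each genotype, was labelled with biotin by the Affymetrix whole-transcript method, per the labels' protocols. The deposited table holds log2 values, 1 per probe set and array, which were made with RMA and Affymetrix Power Tools, per the submitters' processing notes; the sources used here name no version, option or genome build. Array medians from 5.04 to 5.07 show a shared normalization, under which a change in total RNA per cell cannot be seen, and values near background understate differences. No depth applies to arrays, and their number limits the precision.

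Of 41345 probe sets, 23521 had 1 gene symbol, 1814 several and 16010 none; symbols were updated through Entrez numbers in a RefSeq table (GRCm38.p6). The probe set with the highest mean stood for a gene. A gene was tested if, on 2 arrays or more, it reached the 40th percentile of probe sets with 1 symbol, which 13602 did and 8578 did not. The two-sided test between genotypes was that of limma 3.58.1 (lmFit and eBayes, under R 4.3.3), without pairing by replicate number, with Benjamini-Hochberg adjustment over all genes. An exact permutation test of 2 against 2 arrays cannot go below p = 0.333 and was not used. The fit was tested on data simulated once under limma's own model, with 50 changed genes at each size. Errors were independent and normal, and variances came from the distribution that limma fitted to these arrays. It called 2% of changes of 0.5 on the log2 scale, 66% of changes of 1 and 100% of changes of 2 or 3. Deviations shared between arrays were not simulated, so these shares do not measure the power on the real arrays. Sequences are RefSeq's, searched with Python 3.11.15 and pandas 2.3.3.

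The 10 genes and the 7 pathway lists were chosen with earlier results of these data known. Named were the 10 genes, every called gene of a list and the 3 others with the largest moderated t; a few further list genes were named after their values were seen (Plcg1, Gsk3b, Dyrk1a, Il4, Ccl4, Egr3, Il5, Cd40lg, Il21, Irf4, Egr2, Il2ra). Alternatives were other filters, probe set rules, normalizations and variance options, a replicate block and leaving out each array.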

Additional observations from a re-analysis of the deposited data

How the results depend on the processing

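The number of the 10 genes called was 1, and it stayed 1 with no filter, with a filter at the 60th percentile, with the mean of a gene's probe sets, after quantile normalization again, with arrays centred on their median and with the trend and robust options, where Ppp3cc ranged from -0.67 to -0.63. It was 0 in each of the 4 fits that left out 1 array (0 to 0). Over these 4 fits, all genes called numbered from 166 to 221 against 265 (166 when replicate 2 of either genotype was dropped, 169 when CD4-Vα14Tg replicate 1 was), and the pathway genes called from 5 to 6 against 7. With the replicate number as a replicate block, 2 of the 10 genes were called, Nfatc1 joining Ppp3cc (limma adjusted p = 0.0467), as were 674 genes in all and 12 pathway genes. The labels do not say that equal numbers mark a shared animal or day, and same-numbered arrays deviated from their group means with a correlation of 0.26 across genes, over 2 numbers alone. Of 110 refits of the 10 genes, 3 changed sign, all by leaving out 1 array: Nfatc3 ran from -0.068 without WT replicate 1 to 0.119 without WT replicate 2, Rcan1 from -0.271 without CD4-Vα14Tg replicate 1 to 0.086 without the other, and Stim2 from -0.175 without WT replicate 1 to 0.085 without the other. Among named pathway genes, Csnk1e (-0.186 to 0.027, the latter without WT replicate 2) and Xpo1 (-0.0060 to 0.123, the former without CD4-Vα14Tg replicate 1) changed sign in this way, and Kcnn4, Il13 and Tnf passed the threshold with the 60th percentile filter (limma adjusted p = 0.0448, 0.0442 and 0.0421). Of 306 refits of the named pathway genes, 12 gained a call and 7 lost one, the latter those of P2rx7 and Fasl. Leaving out 1 array moved no difference of the 8 called genes named from the 10 or the lists by over 1.5 times, but did so, or turned the sign, for 7 of the 9 others of the 10 (all but Nfatc1 and Nfatc2) and for 12 of 21 named pathway genes that were not called. The causes were not tested.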
